A study of Mus musculus with 14 samples.

Results

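Krt7, Krt8, Krt18, Krt19, Epcam, Spint1, Spint2, St14 and Prss8 are 9 genes for keratins and for surface proteins of epithelial cells. They were chosen by name, with earlier results of these data known. The choice was made from the 23284 genes counted in primary mouse small cell lung cancer, a neuroendocrine carcinoma. All 9 passed the filter on low counts that left 14804 genes for testing. RNA was sequenced from 14 tumours of a genetically engineered mouse model. In 7 libraries the labelled genotype was Rb1/Trp53 (called RP here) and in the other 7 it was Rb1/Trp53/Crebbp (called RPC here). Deletion of the tumour suppressor genes Rb1 and Trp53 was therefore common to both groups, and the groups differed in Crebbp, which encodes a histone acetyltransferase and transcriptional coactivator. The comparison of RPC with RP tumours asked which genes differ when Crebbp is deleted. Not given in the sources used here are the promoter that drove the deletions, the age, sex and strain of the mice, and whether each tumour came from its own mouse. The p-values thus measure only the spread between these 14 libraries.

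Keratins are the intermediate filament proteins of epithelial cells, and each filament is built from pairs of a type I keratin (Krt18, Krt19) with a type II keratin (Krt7, Krt8). Krt8 and Krt18 are the pair of simple epithelia, including those of the lung, and are also found in small cell lung cancer. Epcam is an adhesion protein of the epithelial cell surface, and St14 (matriptase) and Prss8 (prostasin) are membrane-anchored serine proteases that can activate each other. Spint1 and Spint2 are membrane-bound Kunitz-type inhibitors of those proteases, and loss of the inhibitors or of Epcam disturbs epithelial barriers in mice.

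All 9 genes had a lower mean level in RPC than in RP tumours, and 1 library, RPC tumour 5, had less than 10% of the level of any other library in 8 of them, as it had in 1.53% of all genes tested. Over all 14 libraries, 0 of 9 passed the test, when 1.12% of all genes were called lower. Without RPC tumour 5, 5 of 9 fell, against 0.748% of all genes: Krt8, Krt18, Spint1, Spint2 and St14, by 0.76 to 1.68 on the log2 scale. Krt7, Krt19, Epcam and Prss8 did not pass with or without it, and 0 of 9 passed without RPC tumours 3, 5 and 6 (0.0521% of all genes called lower). RPC tumour 5 kept neuroendocrine and lung genes that mark these tumours, among them Chga and Nkx2-1.

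Levels are given as CPM, which are counts scaled to a common library size and composition. A fold change is the log2 of RPC over RP, so that a negative value is lower in RPC. A gene was called where edgeR's quasi-likelihood test gave a Benjamini-Hochberg adjusted p, taken over all genes tested, under 0.05.

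The 14 libraries held 10060969 to 24052799 counts in genes. The level of Crebbp itself overlapped between RP (76.6 ± 13.8 CPM) and RPC (64.7 ± 4.23 CPM; SD, n = 7 each), with edgeR giving a log2 fold change of -0.24 ± 0.12 (SE) and an adjusted p of 0.264. Counts over the whole gene include exons outside any deleted part, so this level does not check the labels. RPC tumours 3, 5 and 6 stood apart from the other 11 libraries in low macrophage, mesothelial, fibroblast and T and NK cell markers. Their summed macrophage markers were at 4.60, 8.46 and 7.86 CPM, against 247 CPM or more in every other library. Results are therefore also given without RPC tumours 3, 5 and 6. They are given without RPC tumour 5 alone as well, and the marker levels do not set that tumour apart from RPC tumours 3 and 6. RPC tumour 5 was the lowest of the 14 libraries in all 9 genes, so leaving it out is not independent of their levels. In bulk tumour RNA, fewer cells of a type and less RNA per cell cannot be told apart.

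The starts of 5 of these genes are shown: the filament partners Krt8 and Krt18, Epcam, and the inhibitors Spint1 and Spint2, which differ in the motifs they hold. RefSeq promoters (GRCm38.p6) of 300 bases, from 250 before to 50 after the start site, were matched for 6 of the 9 genes, and were not matched for Krt19, St14 and Prss8. Each line runs 5′ to 3′ on the gene's own strand, and capitals mark matches to the motifs searched, on either strand. The counts themselves were made on the mm9 build. Krt8 (chr15:102004293-102004592, minus strand) and Krt18 (chr15:102027966-102028265, plus strand) lie near each other on chromosome 15, with 2 RefSeq genes, Gm36026 and Gm41404, between them. Epcam is at chr17:87635729-87636028 (plus strand), Spint1 at chr2:119237110-119237409 (plus strand) and Spint2 at chr7:29281928-29282227 (minus strand).
Krt8: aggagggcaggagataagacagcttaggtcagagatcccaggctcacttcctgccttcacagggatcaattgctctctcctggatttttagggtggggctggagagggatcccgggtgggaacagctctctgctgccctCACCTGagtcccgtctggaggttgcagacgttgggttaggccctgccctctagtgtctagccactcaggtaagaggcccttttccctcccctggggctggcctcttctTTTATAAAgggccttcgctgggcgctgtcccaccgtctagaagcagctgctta
Krt18: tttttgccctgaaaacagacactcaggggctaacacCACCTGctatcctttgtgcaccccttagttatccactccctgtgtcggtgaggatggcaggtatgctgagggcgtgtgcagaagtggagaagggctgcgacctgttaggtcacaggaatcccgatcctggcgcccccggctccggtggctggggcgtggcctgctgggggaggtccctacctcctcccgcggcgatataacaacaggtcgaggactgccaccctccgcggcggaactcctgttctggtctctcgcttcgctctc
Epcam: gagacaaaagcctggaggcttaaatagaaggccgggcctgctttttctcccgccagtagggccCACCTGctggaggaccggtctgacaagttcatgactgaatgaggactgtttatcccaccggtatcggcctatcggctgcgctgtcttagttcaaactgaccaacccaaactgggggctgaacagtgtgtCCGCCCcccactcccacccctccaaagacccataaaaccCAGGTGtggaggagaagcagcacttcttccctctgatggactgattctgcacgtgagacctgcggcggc
Spint1: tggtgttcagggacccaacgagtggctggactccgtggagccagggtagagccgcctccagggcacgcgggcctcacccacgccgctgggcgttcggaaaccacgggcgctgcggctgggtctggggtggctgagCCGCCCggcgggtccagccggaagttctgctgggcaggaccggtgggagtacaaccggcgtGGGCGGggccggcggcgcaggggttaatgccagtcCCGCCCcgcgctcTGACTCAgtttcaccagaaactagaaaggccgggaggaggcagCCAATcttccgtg
Spint2: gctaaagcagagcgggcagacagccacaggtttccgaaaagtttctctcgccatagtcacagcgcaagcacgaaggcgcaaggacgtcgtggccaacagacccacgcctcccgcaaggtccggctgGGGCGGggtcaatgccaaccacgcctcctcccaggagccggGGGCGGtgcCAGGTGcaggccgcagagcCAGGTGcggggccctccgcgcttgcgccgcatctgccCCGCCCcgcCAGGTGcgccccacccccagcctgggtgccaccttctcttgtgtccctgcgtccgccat

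The E-box CACCTG (or CAGGTG on the other strand), known as a binding sequence of Snail and Zeb repressors, was found in 5 of the 6 promoters and in 20.2% of all 32851 RefSeq promoters of this length. It occurred in Krt7, Krt8, Krt18, Epcam and Spint2, and the Spint1 promoter lacked it. Spint2 had 3 copies, Epcam 2 and the others 1 each. The GC box GGGCGG was found in Krt7, Epcam, Spint1 and Spint2, 4 of 6, against 35.7% of all promoters. Krt8 alone held TATAAA, which is in 13.6% of all promoters, as 2 overlapping matches on opposite strands in the capitals TTTATAAA. Spint1 alone held CCAAT (37.4% of all promoters) and the AP-1 element TGANTCA (7.81%). The cyclic AMP response element TGACGTCA, a sequence bound by the CREB factors that Crebbp is named for, was in 0 of the 6 and in 1.79% of all promoters. Its core TGACG was in 0 of 6 against 20.8%, and the grainyhead sequence AACCGGTT in 0 of 6 against 0.146%. A match or its absence in this window is a description of the letters and says nothing about binding.

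**Figure D1:**
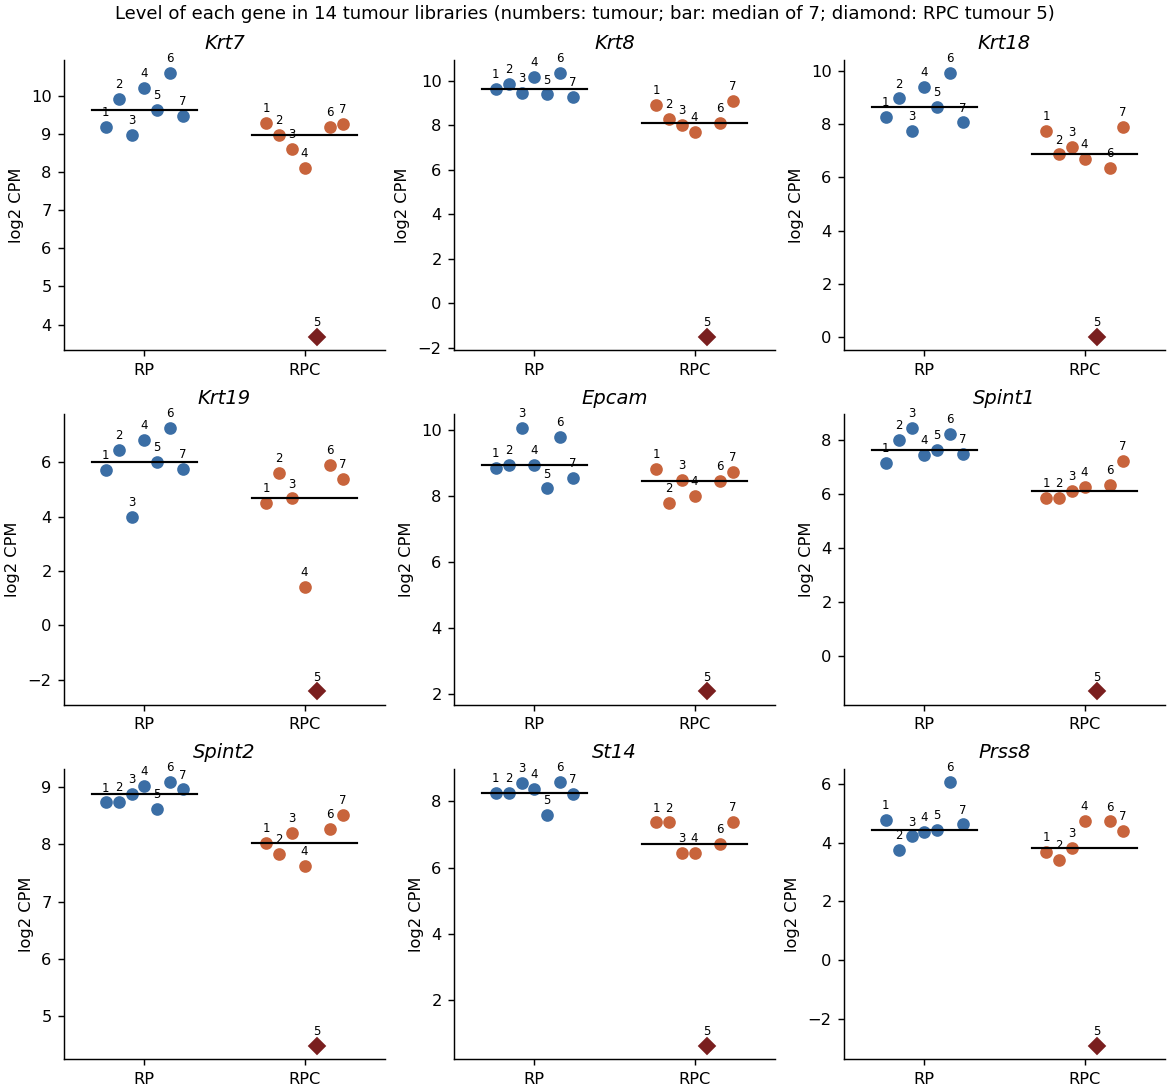
Level of each gene in each library, on a log2 CPM scale (prior count 2), with RP tumours in blue, RPC tumours in orange, tumour numbers beside the points, a bar at the median of 7 and a diamond for RPC tumour 5. In every panel the diamond is the lowest of the 14 points, and in Krt8, Spint2 and St14 every RPC point lies below every RP point.

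Krt8, the type II partner of Krt18, was at 627 CPM in the lowest, 805 CPM in the median and 1308 CPM in the highest of the 7 RP tumours. In RPC tumours it was at 0.217 CPM in tumour 5, 276 CPM at the median and 548 CPM in tumour 7, the highest. The groups did not overlap, and RPC tumour 7 came closest to RP tumour 7, the lowest of its genotype. The RP mean was 889 ± 262 CPM, against 348.5 ± 134 CPM in RPC without tumour 5 (SD, n = 7 and 6). The log2 fold change was -1.57 (SE 0.74, edgeR adjusted p = 0.234) over 14 libraries and -1.35 (SE 0.26, edgeR adjusted p = 0.0312) without RPC tumour 5.

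Krt18, the type I partner, spread more widely, from 213 CPM in RP tumour 3 through a median of 404 CPM to 966 CPM in RP tumour 6. RPC tumours had 0.867 CPM in tumour 5, a median of 116.5 CPM and a highest level of 240.5 CPM in tumour 7. In 6 of 7 RPC tumours Krt18 lay below every RP tumour, and the exception, RPC tumour 7, lay above RP tumour 3 alone. With all libraries the log2 fold change was -1.90 (SE 0.67, edgeR adjusted p = 0.130), and it was -1.68 (SE 0.37, edgeR adjusted p = 0.0445) without RPC tumour 5. Among the 9 genes this was the fold change farthest from 0 in both fits.

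Krt7, a type II keratin of simple and glandular epithelia, overlapped between the genotypes. Its RP levels were 503, 800.5 and 1554 CPM (lowest, median, highest), and its RPC levels were 12.6 CPM in tumour 5, 503 CPM at the median and 629 CPM in tumour 1. Of the 7 RPC tumours, 3 lay below every RP tumour (tumours 3, 4 and 5). By edgeR, its log2 fold change of -1.07 (SE 0.53, adjusted p = 0.263), or -0.85 (SE 0.28, edgeR adjusted p = 0.137) without RPC tumour 5, did not pass.

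Krt19, the smallest keratin, which lacks the tail of the others, was the least abundant of the 4 and the most variable. It was at 15.8 CPM in RP tumour 3, a median of 63.8 CPM and 154 CPM in RP tumour 6. RPC tumours had 0.0542 CPM (1 count) in tumour 5, 2.52 CPM in tumour 4, a median of 25.3 CPM and 59.5 CPM in tumour 6, the highest. Only tumours 4 and 5 lay below every RP tumour. The log2 fold changes of -1.44 (SE 0.79, edgeR adjusted p = 0.313) and -1.21 (SE 0.57, edgeR adjusted p = 0.280) without RPC tumour 5 did not pass.

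Keratin proportions were compared per kilobase of transcript, since longer transcripts yield more counts. The longest protein-coding transcript was used, 4094 bases for Krt7 and 1958 for Krt8, and the size of each ratio depends on that choice. Before this division, the RP medians of Krt7 and Krt8 were 800.5 and 805 CPM. Krt8 over Krt18 was 0.994 to 2.42 (median 1.37) in RP and 1.37 to 2.48 (median 1.67) in the 6 RPC tumours other than tumour 5, so the ranges overlapped. Krt7 over Krt8 was 0.343 to 0.568 (median 0.498) in RP and 0.537 to 1.01 (median 0.674) in those RPC tumours, where only RPC tumour 7 fell inside the RP range. Krt18 over Krt19 was 5.54 to 14.8 in RP, and ran in RPC tumours from 1.51 in tumour 6 to 44.5 in tumour 4. The 4 keratins together made up 1435 to 3981 CPM in RP tumours, 594 to 1444 CPM in RPC tumours without tumour 5, and 13.8 CPM in tumour 5. In RPC tumour 5 nearly all of that was Krt7. None of these ratios was tested.

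Epcam, the adhesion protein, did not pass in either comparison. It was at 297, 486 and 1068 CPM (lowest, median, highest) in RP tumours and at 4.07 CPM in RPC tumour 5, 349.9 CPM at the RPC median and 447 CPM in RPC tumour 1. Only RPC tumours 2, 4 and 5 lay below every RP tumour. Its log2 fold change was -0.98 (SE 0.59, edgeR adjusted p = 0.357), or -0.76 (SE 0.30, edgeR adjusted p = 0.200) without RPC tumour 5. RP tumour 3, the lowest RP tumour for Krt7, Krt18 and Krt19, was the highest for Epcam and for Spint1.

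St14, the protease matriptase, was at 193.5 CPM in RP tumour 5 and between 300.5 and 383 CPM in the other 6 RP tumours, with a median of 306 CPM. Its RPC levels were 1.41 CPM in tumour 5, a median of 104 CPM and 166 CPM at the highest, so that every RPC tumour lay below every RP tumour. RP tumours averaged 314 ± 62.9 CPM, against 129 ± 40.0 CPM in RPC without tumour 5 (SD, n = 7 and 6). Over 14 libraries the log2 fold change was -1.50 (SE 0.56, edgeR adjusted p = 0.149), and without RPC tumour 5 it was -1.28 (SE 0.21, edgeR adjusted p = 0.0186). RefSeq places a gene, Gm16071, over part of St14, and the sources used here do not give whether counting used strand.

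Prss8, the protease prostasin, was the least abundant gene of the 9 per kilobase. RP tumours had 13.3, 21.6 and 66.6 CPM (lowest, median, highest), with the highest in RP tumour 6. RPC tumour 5 had 0 counts, and the other 6 RPC tumours had 10.5 to 26.6 CPM. Of those, only tumours 1 and 2 lay below the lowest RP tumour. Its log2 fold change was -0.79 (SE 0.70, edgeR adjusted p = 0.538), and -0.56 (SE 0.37, edgeR adjusted p = 0.437) without RPC tumour 5. Without RP tumour 6 these values were -0.41 and -0.19. RefSeq has Kat8 overlapping Prss8, so the same doubt about strand holds for it.

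Spint1, the first Kunitz-type inhibitor, was at 142, 199 and 355 CPM (lowest, median, highest) in RP tumours. In RPC tumours it was at 0.271 CPM in tumour 5, 70.3 CPM at the median and 151 CPM in tumour 7, the only RPC tumour inside the RP range. The log2 fold change was -1.70 (SE 0.64, edgeR adjusted p = 0.151) over 14 libraries and -1.48 (SE 0.27, edgeR adjusted p = 0.0247) without RPC tumour 5.

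Spint2, the other inhibitor, varied least among RP tumours, from 391.5 to 543.5 CPM with a median of 470.5 CPM. RPC tumours had 22.3 CPM in tumour 5, 197 CPM in tumour 4, a median of 260.0 CPM and 363.5 CPM in tumour 7, all below every RP tumour. Its coefficient of variation among RP tumours was 11.8%, against 20.05% for St14, 29.5% for Krt8 and 33.35% to 65.2% for the other 6. The log2 fold change was -0.97 (SE 0.38, edgeR adjusted p = 0.165), and -0.76 (SE 0.16, edgeR adjusted p = 0.0354) without RPC tumour 5.

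Per kilobase of transcript, Spint2 over Spint1 was 2.22 to 5.02 in RP tumours and 4.04 to 7.49 in the 6 RPC tumours other than tumour 5. The inhibitors together over St14 were 3.93 to 6.21 in RP and 3.74 to 9.10 in those RPC tumours. Both pairs of ranges overlapped, and these ratios were not tested.

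Of the 9 genes, 3 (Krt8, Spint2 and St14) had every RPC tumour below every RP tumour, against 0.621% of the 14804 genes tested. The same 3 did so without RPC tumour 5, against 0.708% of 14974. By the test over 14 libraries, 0 of 9 were called, with 1.12% of all genes called lower, and DESeq2 called 1 of 9, Krt18 (DESeq2 adjusted p = 0.0276). By limma-voom 0 of 9 passed over 14 libraries, with log2 fold changes of -3.02 for Krt19, -2.92 for Krt8, -2.90 for Spint1, -2.32 for St14, -2.26 for Prss8 and -1.57 for Epcam, each over 1.5 times as far from 0 as in edgeR. At an unadjusted p under 0.05, 5 of 9 were lower against 11.1% of all genes, and 9 of 9 had a negative fold change against 49.8%. The median log2 fold change of the 9 was -1.44, beside 0.002 for all genes. Without RPC tumour 5, 5 of 9 were called lower against 0.748% of all genes, 7 of 9 were lower at an unadjusted p under 0.05 against 9.96%, and the median log2 fold change was -1.21. The standard errors were then 1.39 to 2.80 times smaller, and each of the 9 fold changes lay nearer to 0.

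The 5 calls made without RPC tumour 5 differed in how they held when a further library was left out. St14 held in all 13 such fits (highest edgeR adjusted p = 0.0472). Spint1 was lost in 5 of 13 fits, when RP tumour 6 was dropped, or RPC tumour 2, 3, 4 or 6 (highest edgeR adjusted p = 0.0638). Krt8 was lost in 8, when RP tumour 1, 2, 4 or 6 was dropped, or RPC tumour 2, 3, 4 or 6 (highest edgeR adjusted p = 0.0757). Spint2 was lost in 9, when RP tumour 2, 4, 6 or 7 was dropped, or RPC tumour 1, 2, 3, 4 or 6 (highest edgeR adjusted p = 0.0778). Krt18 was lost in 11, in every fit except those without RP tumour 3 or RPC tumour 7, with an edgeR adjusted p of up to 0.0961. Without RPC tumours 3, 5 and 6, 0 of 9 were called, when 0.0521% of all genes were called lower. The smallest adjusted p was then St14's (edgeR adjusted p = 0.0999, log2 fold change -1.11, SE 0.23), and 6 of 9 were lower at an unadjusted p under 0.05 against 7.05% of all genes. With a term for the mean level of non-tumour cell markers, the St14 fold change was -1.09 in log2 (SE 0.21, edgeR adjusted p = 0.0939) and 0 of 9 were called. With the replicate number as a block it was -1.42 (SE 0.23, edgeR adjusted p = 0.0938). That fit called 0 of 9, and 2 genes in all. All 9 fold changes stayed negative in each of these fits, a sign shared by 50.2% of all genes without RPC tumour 5 and by 51.0% without RPC tumours 3, 5 and 6.

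**Figure D2:**
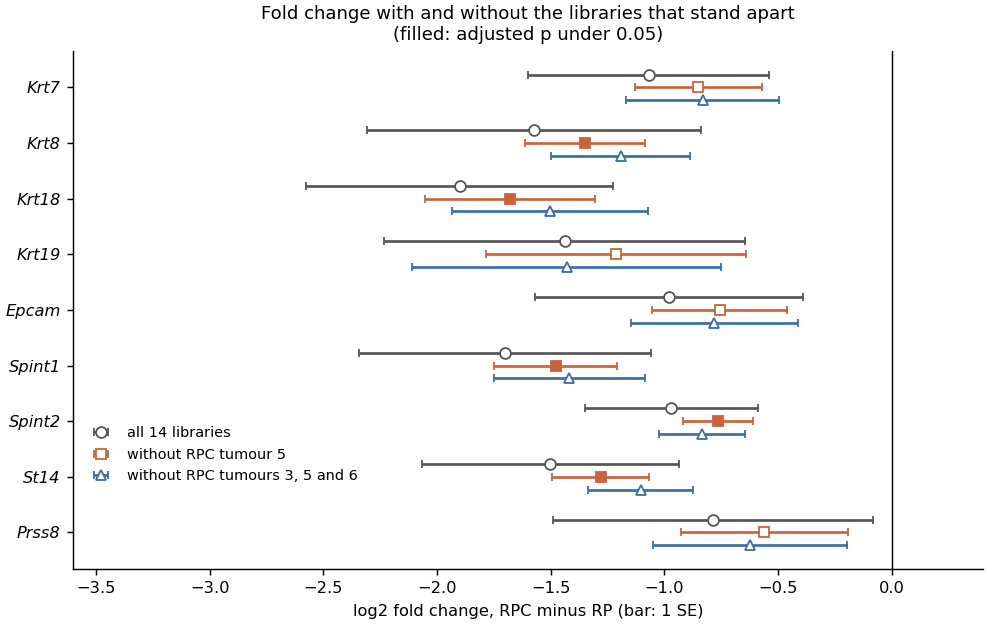
Log2 fold change of RPC over RP with a bar of 1 SE, for all 14 libraries (circles), without RPC tumour 5 (squares) and without RPC tumours 3, 5 and 6 (triangles); filled marks had an edgeR adjusted p under 0.05. Every mark lies left of 0, and only the squares of Krt8, Krt18, Spint1, Spint2 and St14 are filled.

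RPC tumour 5 had the lowest level of the 14 libraries in 9 of 9 genes. For 8 of them, all but Spint2, its level was under 10% of that in every other library, which held for 1.53% of all genes tested (226 genes, with no minimum level asked of the other libraries). RPC tumours 3 and 6 had 174 and 140 such genes, and the other libraries 5 to 23, but 0 of the 9 in each. The counts behind its levels were 233 for Krt7, 4 for Krt8, 16 for Krt18, 1 for Krt19, 75 for Epcam, 5 for Spint1, 411 for Spint2, 26 for St14 and 0 for Prss8. The median of the other 6 RPC tumours was 12.5 times higher for Spint2 (95% exact Poisson interval 11.3 to 13.7) and 43.1 times higher for Krt7 (37.9 to 49.2). It was 86.8 times higher for Epcam (69.2 to 110.3), 95.3 times for St14 (65.1 to 146), 148 times for Krt18 (91.2 to 259), 272 times for Spint1 (116 to 836) and 1363 times for Krt8 (532.5 to 5004). For Krt19, with 1 count, the interval was 110.2 to 24250, and Prss8 was at least 108-fold higher by a floor of 3 counts in RPC tumour 5. These intervals cover counting error only. The genes were not reduced in equal measure, with Krt7 and Spint2 keeping 233 and 411 counts where Krt8 kept 4.

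The same tumour was also low in other epithelial genes of the lists read beside these 9. Of 25 other epithelial surface genes, 13 were under 10% of every other library in RPC tumour 5, among them Cdh1, which encodes E-cadherin, at 0.650 CPM (657 to 1240 CPM in RP) and Ap1m2, a sorting adaptor of epithelial cells, at 0 counts. The 13 include Ceacam1, which had 0 counts there and was at 0.1045 CPM in the next lowest library, too low to compare. Among the epithelial transcription and splicing factors, Ehf, Grhl2, Esrp1 and Esrp2 were so. Esrp1, an epithelial splicing regulator, was at 0.325 CPM there against 154 to 366 CPM in RP. These genes were named after their values were seen. In contrast, the lung factor Nkx2-1 was at 527 CPM (298 to 753.5 CPM in RP), Foxa1 at 405 CPM (199.8 to 602 CPM) and Foxa2 at 165 CPM (169.9 to 338 CPM in RP and 78.0 to 191 CPM in other RPC tumours). The neuroendocrine genes Chga, Syp, Insm1 and Ddc were at 571, 215, 565 and 1010 CPM, within the range of the other libraries, and Calca was lowest of 14 at 33.5 CPM.

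**Figure D3:**
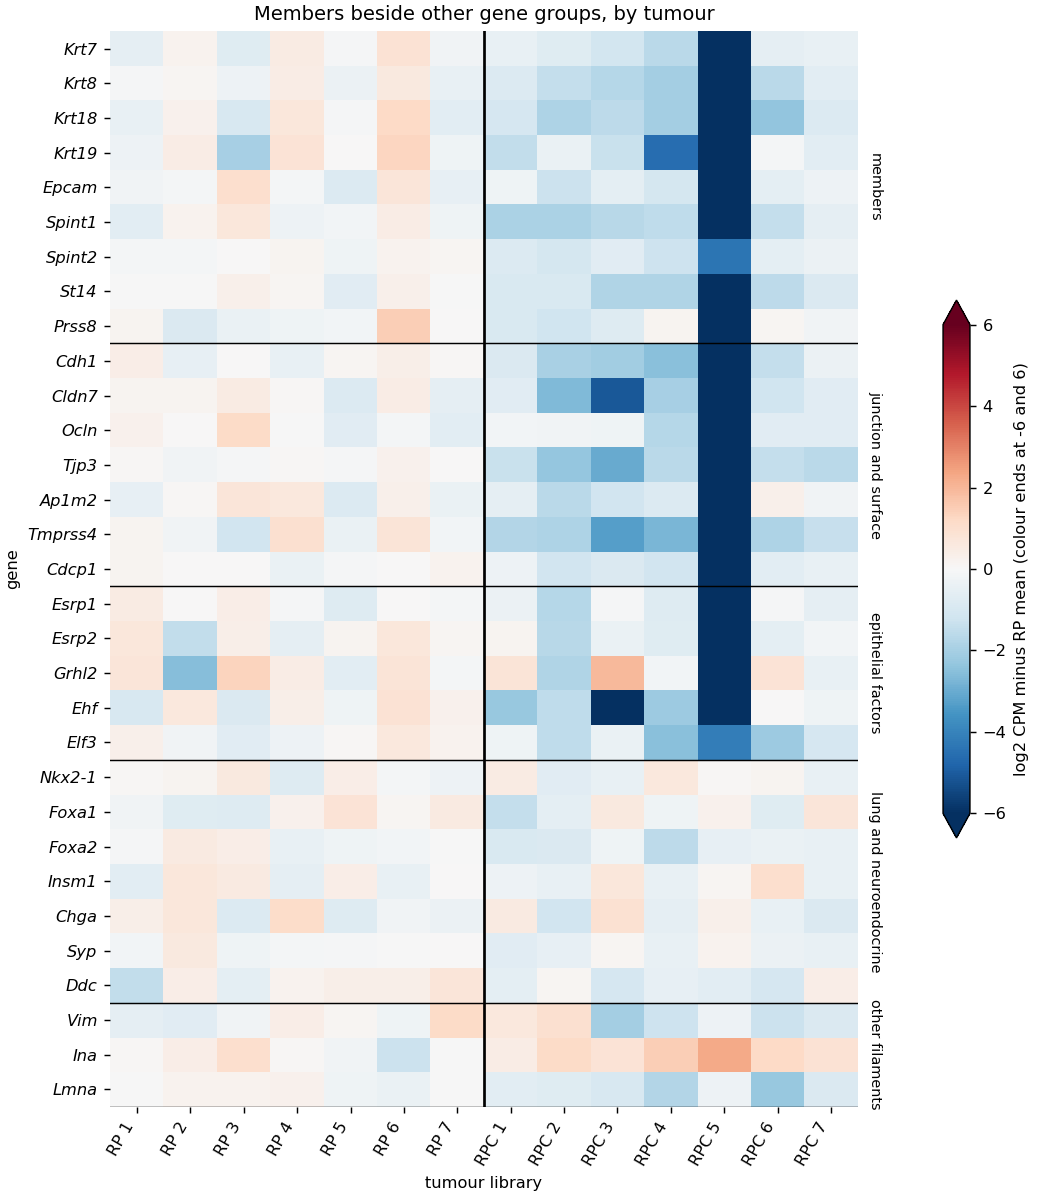
Log2 CPM minus the RP mean in each library (columns) for the 9 genes and for other junction, epithelial, neuroendocrine, lung and filament genes (rows), blue below and red above the RP mean, with colour ending at -6 and 6. The column of RPC tumour 5 is dark blue for the 9 genes and most other epithelial genes and pale for Nkx2-1, Foxa1, Insm1, Chga and Syp.

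Other intermediate filament genes did not share that pattern. Of 14 tested, 0 passed over 14 libraries and 1, Lmna, which encodes nuclear lamins, was called lower without RPC tumour 5 (log2 fold change -1.11, SE 0.25, edgeR adjusted p = 0.0436). In RPC tumour 5 Lmna was at 232 CPM, within the RP range of 214 to 344 CPM. Vim, the vimentin gene of mesenchymal cells, was at 99.1 CPM in RPC tumour 5, number 8 of 14 from the top. Ina, which encodes the neuronal filament protein internexin, was highest there, at 291 CPM against 24.7 to 120.4 CPM in RP tumours (log2 fold change 1.16, SE 0.32, edgeR adjusted p = 0.0671). Of 4 other simple keratins 3 were tested, and of 20 stratified and basal keratins 3 were tested. None of these 6 passed. Krt17 was at 1 count and Krt23 and Krt79 at 0 counts in RPC tumour 5. The lowest of the other libraries had 0.0893 CPM for Krt17 and 0 CPM for Krt23 and Krt79, too low to compare. Krt80 and Krt222 were at 1.08 and 0.217 CPM in RPC tumour 5, against 1.85 and 0.314 CPM in the lowest other library. Krt10 was at 6.34 CPM in RPC tumour 5, above the 5.55 CPM of the lowest other library.

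Genes that link keratins to junctions were read next. Of 15, 1 fell in both comparisons: Jup, the desmosomal linker plakoglobin (edgeR adjusted p = 0.00899 over 14 libraries, with a log2 fold change of -0.78 and SE 0.12, and 0.0186 without RPC tumour 5, with -0.80 and SE 0.13). In RPC tumour 5 Jup was at 218 CPM, between the other RPC tumours, whereas Dsp, Ppl, Pkp2 and Pkp3 were under 10% of every other library. Dsp, the desmoplakin that anchors keratin filaments, was at 264 to 652 CPM in RP and 2.17 CPM in RPC tumour 5. The median log2 fold change of the list was -0.71, and without RPC tumour 5 it was -0.66. In that fit 10 of 15 were lower at an unadjusted p under 0.05 by edgeR, against 9.96% of all genes.

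Of 15 partners and processing enzymes of Epcam, Fhl2 alone was called over 14 libraries (edgeR adjusted p = 0.0410, log2 fold change -1.80, SE 0.42), and it did not pass without RPC tumour 5 (edgeR adjusted p = 0.0633). Fhl2 is a cytoplasmic partner of the cleaved Epcam tail. Cldn7, the claudin that binds Epcam, was at 106 to 257 CPM in RP and 0.488 CPM in RPC tumour 5 (log2 fold change -1.79, SE 0.72, edgeR adjusted p = 0.173). Cd9, a tetraspanin partner, was at 974 to 2374 CPM in RP and 342 to 1344 CPM in RPC tumours other than tumour 5, where it was 170.4 CPM (edgeR adjusted p = 0.0790).

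On the protease side, 9 of 22 other membrane serine proteases were tested. Tmprss4, a transmembrane protease, fell without RPC tumour 5 (log2 fold change -2.17, SE 0.37, edgeR adjusted p = 0.0186), from 40.2 to 172 CPM in RP to 8.78 to 33.9 CPM in the other 6 RPC tumours. With RPC tumour 5, where it had 1 count, its adjusted p was 0.0702 by edgeR. Of 14 matriptase substrates and genes of the hepatocyte growth factor pathway, 1 fell without RPC tumour 5: Cdcp1, a surface protein cleaved by matriptase (log2 fold change -0.73, SE 0.16, edgeR adjusted p = 0.0455). Cdcp1 had 2 counts in RPC tumour 5 and Met, the growth factor's receptor, had 0 counts, both under 10% of every other library. Of 14 other serine protease inhibitors tested over 14 libraries, 0 passed, and 0 were far below the rest in RPC tumour 5. At an unadjusted p under 0.05 by edgeR, 2 of these 14 were lower, against 11.1% of all genes.

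Among the 25 other epithelial surface genes, 24 had a negative fold change over 14 libraries, against 49.8% of all genes. The median was -0.88, and 0 were called. Without RPC tumour 5, 2 fell: Tjp3, a tight junction scaffold (edgeR adjusted p = 0.00414, log2 fold change -1.80, SE 0.23), and Tmem30b, a subunit of phospholipid flippases (edgeR adjusted p = 0.0207, log2 fold change -2.09, SE 0.37). Tjp3 was at 112 to 158 CPM in RP and 16.2 to 51.8 CPM in the 6 RPC tumours. Without RPC tumours 3, 5 and 6, 2 of the 25 were called: Tjp3 (edgeR adjusted p = 0.00473) and Cgn, the junction protein cingulin (edgeR adjusted p = 0.0450). Of the genes called without RPC tumour 5 in these lists, Jup, Lmna, Tmprss4, Cdcp1 and Tmem30b did not pass without all 3 tumours (edgeR adjusted p = 0.0910 to 0.188). Of 17 epithelial transcription and splicing factors, 0 passed in any of the 3 comparisons. Over 14 libraries, 3 were lower and 1 higher at an unadjusted p under 0.05 by edgeR, when 11.1% of all genes were lower.

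Levels per kilobase of transcript gave the order of the 9 genes. Krt7 was divided by its longest protein-coding transcript, of 4094 bases, and its place depends on that choice. In CPM its RP median was 800.5, against 805 for Krt8. In RP tumours the medians ran from Krt8 at 411 through Spint2 at 340, Krt18 at 281, Epcam at 238, Krt7 at 195.5, St14 at 94.0, Spint1 at 85.6 and Krt19 at 40.5 to Prss8 at 11.7 CPM per kilobase. Spint2 was above Krt18 in 4 of 7 RP tumours and St14 above Spint1 in 3 of 7, so these neighbours did not differ beyond their spread. Krt7 was above St14, Spint1 above Krt19, and Krt19 above Prss8 in 7 of 7. In the 6 RPC tumours other than tumour 5, Spint2 led at 200.4, followed by Epcam at 173, Krt8 at 151 and Krt7 at 133 CPM per kilobase. There Krt18 was at 89.4, St14 at 41.2, Spint1 at 31.7, Krt19 at 21.1 and Prss8 at 9.48 CPM per kilobase. Epcam was above Krt8 and Krt7 above Krt18 in 3 of 6 each.

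Pairs that act together were correlated across libraries on log2 CPM, with 6 pairs tested, permutation p-values and Benjamini-Hochberg adjustment. Over 14 libraries all 6 Pearson correlations were positive, at 0.899 to 0.981, but RPC tumour 5 lay far from the rest in each. Krt8 and Krt18 had r = 0.979 (adjusted permutation p = 3e-05, from an unadjusted 1e-05, the smallest that the resampling can give) and Spearman's rho = 0.943 (adjusted permutation p = 0.00012). Their relation held without RPC tumour 5 (r = 0.946, adjusted permutation p = 0.00012) and without the 2 libraries farthest from the Krt8 median, RPC tumours 4 and 5 (r = 0.945). Within RP it passed by Pearson (r = 0.904, exact adjusted p = 0.0417, n = 7) but not by Spearman (rho = 0.821, exact adjusted p = 0.205). Within RPC without tumour 5, r was 0.863 (exact adjusted p = 0.225, n = 6).

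Spint1 and Spint2 had r = 0.981 (adjusted permutation p = 3e-05) and rho = 0.868 (adjusted permutation p = 0.0003), and r = 0.868 without RPC tumour 5. Within RP their r was 0.262 (exact adjusted p = 0.557, n = 7) and within RPC without tumour 5 it was 0.664 (exact adjusted p = 0.281, n = 6). St14 and Spint1 had r = 0.975 (adjusted permutation p = 0.00016), rho = 0.859 (adjusted permutation p = 0.00024) and r = 0.814 without RPC tumour 5, but 0.457 within RP and 0.112 within RPC without tumour 5 (exact adjusted p = 0.493 and 0.919, n = 7 and 6). With tumour 5 included, r within RPC was 0.988 for Spint1 and Spint2 (exact adjusted p = 0.0179, n = 7) and 0.975 for St14 and Spint1 (exact adjusted p = 0.0805, n = 7). Epcam and Krt8 had r = 0.969 (adjusted permutation p = 0.000372), rho = 0.829 (adjusted permutation p = 0.00063), r = 0.671 without RPC tumour 5, 0.388 within RP and 0.664 within RPC without tumour 5 (exact adjusted p = 0.493 and 0.281, n = 7 and 6).

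Krt8 and Krt19 had r = 0.899 (adjusted permutation p = 0.00036) and rho = 0.754 (adjusted permutation p = 0.00319), with r = 0.689 without RPC tumour 5 and 0.5625 (adjusted permutation p = 0.0690) without RPC tumours 4 and 5, where the relation no longer passed. St14 and Prss8 had r = 0.914 (adjusted permutation p = 0.0127) but rho = 0.354 (adjusted permutation p = 0.2155), and r = 0.278 (adjusted permutation p = 0.371) without RPC tumour 5. That relation rested on RPC tumour 5. Without the 2 farthest libraries, r was 0.841 for Spint1 and Spint2 (RPC tumours 2 and 5), 0.785 for St14 and Spint1 (RP tumour 6 and RPC tumour 5) and 0.766 for Epcam and Krt8 (RP tumour 3 and RPC tumour 5). Within genotypes Krt8 and Krt19 had r = 0.743 in RP and 0.491 in RPC without tumour 5 (exact adjusted p = 0.133 and 0.438, n = 7 and 6). St14 and Prss8 had 0.301 and -0.497 (exact adjusted p = 0.493 and 0.365, n = 7 and 6).

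**Figure D4:**
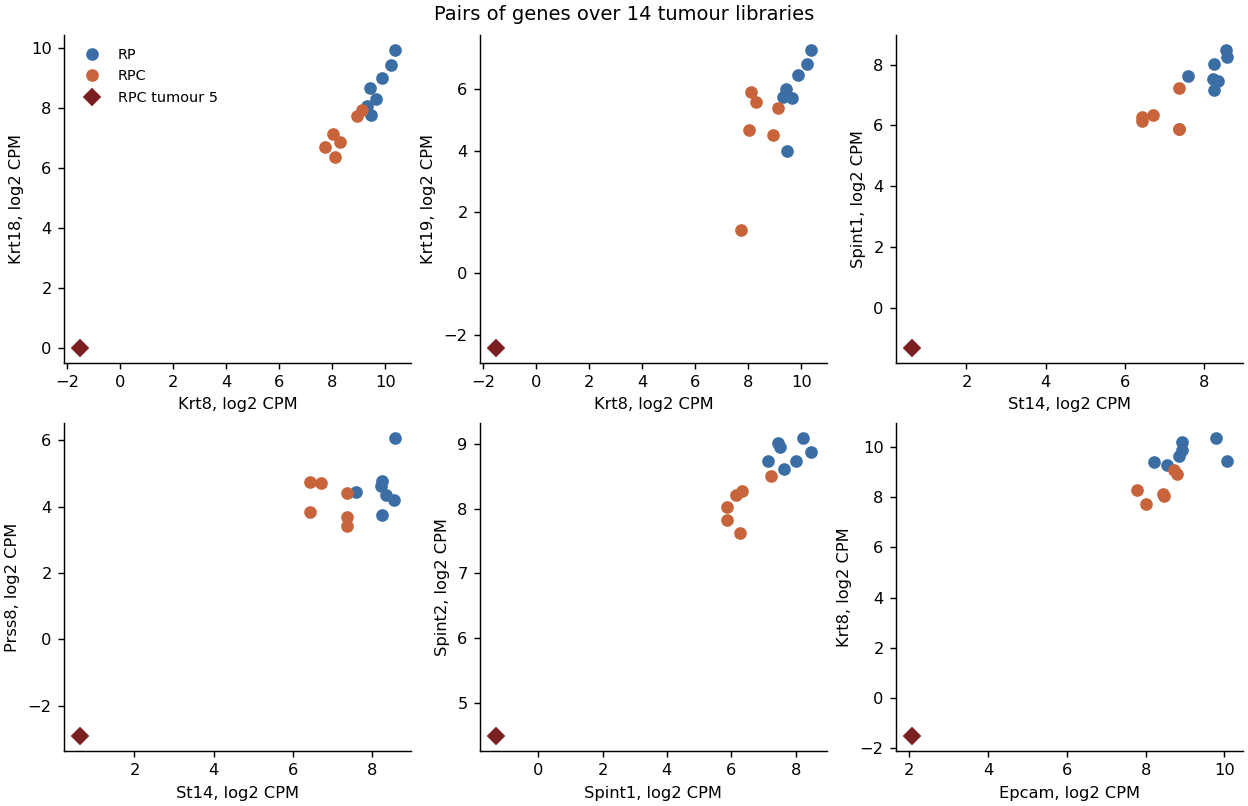
Log2 CPM (prior count 2) of 2 genes against each other in each of 14 libraries, for the 6 pairs, with RP in blue, RPC in orange and RPC tumour 5 as a diamond. The diamond lies far below and left of the rest in all 6 panels, and the points of Krt8 and Krt18 follow a line without it, while those of St14 and Prss8 do not.

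Over all 36 pairs of the 9 genes, r was 0.818 to 0.987 (median 0.952) with 14 libraries and 0.208 to 0.946 (median 0.691) without RPC tumour 5. The genes most like the 9, by the mean of their 9 correlations over 14 libraries among 14616 genes, were Ildr1 (0.961), Tmem184a (0.960), Cdh1 (0.958), Ripk4 (0.954) and Grb7 (0.954). All 5 had at most 49 counts in RPC tumour 5. Most like Krt8 were Tmem184a (0.991), Ildr1 (0.989) and Cdcp1 (0.986), and most like Epcam were 1810019J16Rik (0.984), Ripk4 (0.984) and Ap1m2 (0.980). These libraries share RPC tumour 5, and without it the correlation with Krt8 was 0.921 for Tmem184a, 0.892 for Ildr1 and 0.803 for Cdcp1. The correlation with Epcam was then 0.866 for 1810019J16Rik, 0.838 for Ripk4 and 0.786 for Ap1m2. Means over the 9 genes fell to 0.738 for Ildr1, 0.724 for Tmem184a, 0.718 for Cdh1, 0.666 for Ripk4 and 0.734 for Grb7.

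Markers of other cell types, some of which express keratins or Epcam, were read beside the 9 genes. Macrophage, mesothelial, fibroblast, ciliated and T and NK cell markers were lower in RPC tumours 3, 5 and 6 than in all other libraries. The 4 mesothelial markers summed to 3.56, 0.379 and 0.268 CPM in RPC tumours 3, 5 and 6, against 7.02 to 32.0 CPM in RP and 11.1 to 74.8 CPM in the other RPC tumours. In RPC tumour 5 Upk3b and Wt1 were at 0 counts and the defining marker Msln at 0.108 CPM. The 7 alveolar type 2 markers summed to 86.6, 141 and 51.7 CPM in the same 3 tumours, against 174.5 to 1732 CPM in RP and 114 to 3250 CPM in the other RPC tumours. Sftpc, the defining marker, was at 10.4, 19.2 and 8.39 CPM there, and Sftpd, Lamp3 and Slc34a2 were at 0 counts in RPC tumour 5.

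The 4 club cell markers summed to 24.4, 3.42 and 517 CPM in RPC tumours 3, 5 and 6, against 209 to 2606 CPM in RP and 35.1 to 2476 CPM in the other RPC tumours. Their defining marker Scgb1a1 was at 1.57, 0.542 and 0.357 CPM in those 3 tumours. The 5 ciliated markers summed to 19.1, 20.7 and 24.1 CPM in them, against 25.1 to 96.4 CPM in RP and 38.8 to 68.9 CPM in the other RPC tumours. Alveolar type 1 markers summed to 58.1, 48.0 and 52.2 CPM, against 72.3 to 261 CPM and 39.9 to 582 CPM, and basal markers to 2.40, 8.89 and 2.95 CPM, against 2.68 to 6.58 CPM and 0.724 to 16.7 CPM. Fibroblast markers summed to 3.45, 126 and 5.53 CPM, against 212 to 819 CPM in RP and 256 to 602 CPM in the other RPC tumours. Endothelial markers summed to 7.32, 85.0 and 1.96 CPM, against 73.2 to 219.9 CPM and 40.1 to 259 CPM, and T and NK markers to 0.314, 0.108 and 0.625 CPM, against 1.99 to 41.1 CPM and 2.68 to 13.1 CPM. In RPC tumour 5 nearly all of the endothelial sum was Kdr, at 82.8 CPM. Pecam1 was at 2.06 CPM and Tek at 0.217 CPM there, and Cdh5 and Cldn5 were at 0 counts. Most of its fibroblast sum was Pdgfra, at 117 CPM, with Col1a1 at 0.379 CPM and Col3a1 at 0 counts. The 8 neuroendocrine tumour markers summed to 4738, 3759 and 4996 CPM, against 5107 to 11950 CPM in RP and 3773 to 5762 CPM in the other RPC tumours. In RPC tumours 3 and 6, which share the low macrophage and mesothelial sums, Krt8 was at 261 and 276 CPM, Epcam at 356 and 349.9 CPM and St14 at 87.1 and 104 CPM. The part of other cells in the difference between the genotypes was not tested beyond the fits with the marker term and without the 3 tumours.

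**Figure D5:**
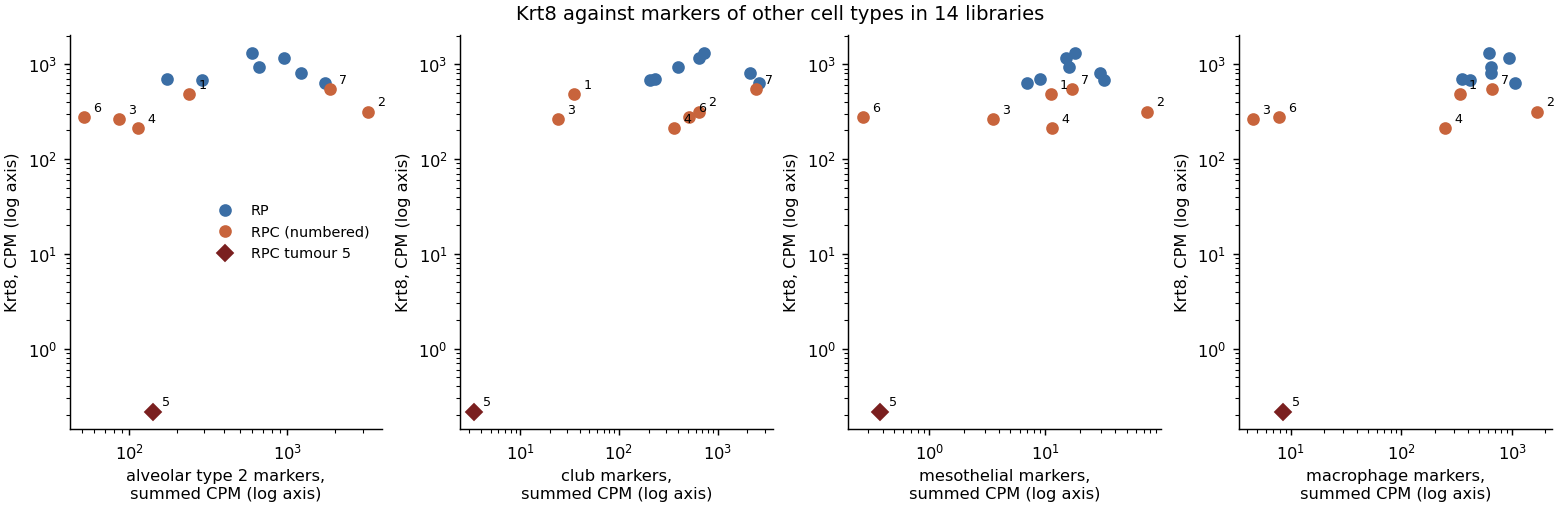
Krt8 (vertical axis, CPM, log scale) against the summed CPM of markers of 4 other cell types (horizontal axes, log scale) in 14 libraries, with RP in blue, RPC tumours numbered in orange and RPC tumour 5 as a diamond. RPC tumours 3 and 6 share the low macrophage and mesothelial sums of RPC tumour 5, and their Krt8 levels, 261 and 276 CPM, lie with the other RPC tumours.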

How the data were processed

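The deposited tables give raw read counts per gene, 1 table for each of 14 tumours. Per the submitters' processing notes, the authors used bcl2fastq 1.8.2, TopHat2 2.0.12, HTSeq 0.6.1 and the genome build mm9. Not given in the sources used here: the annotation and any use of strand in counting. Each file also has 5 lines that name no gene, which hold 25.9% to 31.5% of the counts and were left out of library sizes and tests. The remaining 10060969 to 24052799 counts per library set the precision.

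Genes with few counts were removed by edgeR's filterByExpr, at its minimum count of 10 and total of 15. Libraries were scaled by TMM (factors 0.906 to 1.08), and RPC was compared with RP by edgeR's quasi-likelihood F test (edgeR 4.0.16, R 4.3.3), two-sided, with Benjamini-Hochberg adjustment over all genes tested at 0.05. The fit was repeated, filter and scaling included, without RPC tumour 5 (14974 genes) and without RPC tumours 3, 5 and 6 (15358 genes). SE is the absolute log2 fold change over the square root of F. Correlations used log2 CPM with a prior count of 2 and 100000 permutations, exact pairings within a genotype. Levels per kilobase used the longest protein-coding transcript of GENCODE M21. Of 42 pairs of libraries within a genotype, none agreed within counting noise (lowest chi-square per degree of freedom 62.1).

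The 9 genes, 10 lists of related genes and 11 marker lists were chosen with earlier results of these data known. Named from each list were the genes with the 3 smallest p-values and the one with the highest mean level, as far as a result turned on them, and, added after their values were seen, genes called without RPC tumour 5 or far lower in it than in any other library. The genes most like the 9 were those with the highest mean Pearson correlation among genes with a mean of at least 1 CPM. Alternatives were other scalings, other filters, DESeq2 1.42.0, limma-voom (limma 3.58.1), robust empirical Bayes, a term for non-tumour markers, the replicate number as a block, and leaving out each library.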

Additional observations from a re-analysis of the deposited data

Results flagged for a closer look

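Each gene's log2 CPM was examined in each genotype, 18 groups of 7 libraries, for a lowest or highest library whose gap to its neighbour exceeded 0.568 of the group's range. Chance alone picks out about 1 in 20 such groups. The 9 genes were correlated over the 14 libraries (r = 0.818 to 0.987), so their groups are not independent. That rate therefore does not measure how unusual several flags of 1 library are. RPC tumour 5 was set apart as the lowest RPC library for 8 of the 9 genes, with the gap taking up 0.792 of the range for Krt7, 0.870 for Krt8, 0.803 for Krt18, 0.847 for Epcam, 0.839 for Spint1, 0.780 for Spint2, 0.862 for St14 and 0.826 for Prss8. Krt19 was not among them, since RPC tumour 4 was low as well. RP tumour 5 was set apart as the lowest RP library for St14, with a gap of 0.645 of the range. No other value among the 9 genes was set apart.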

How the results depend on the processing

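All 9 fold changes kept their negative sign under every alternative, with and without RPC tumour 5. Over 14 libraries, 327 genes and 0 of the 9 were called. DESeq2 called 1424 genes and 1 of the 9, limma-voom 503 genes (with larger fold changes, as given for 6 of the 9 above), the term for non-tumour markers 7 genes, the replicate block 74 genes and the fit without RPC tumours 3, 5 and 6 called 11 genes. Leaving out each library in turn gave 51 to 898 genes (51 without RP tumour 6, 898 without RP tumour 3) and 0 to 5 of the 9, with the 5 only without RPC tumour 5.

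Without RPC tumour 5, 190 genes and 5 of the 9 were called. No filter gave 114 genes, DESeq2 1024 genes, the marker term 15 genes and 0 of the 9, the replicate block 2 genes and 0 of the 9, and leaving out RPC tumours 3 and 6 as well 11 genes and 0 of the 9. A further library left out gave 23 to 539 genes (23 without RPC tumour 2, 539 without RP tumour 3) and 1 to 5 of the 9. Krt18 was also lost with upper-quartile scaling, library size alone or no filter (edgeR adjusted p = 0.0508 to 0.0537), and DESeq2 added Krt7 (DESeq2 adjusted p = 0.0455). The correlation of St14 with Prss8 was 0.278 without RPC tumour 5 (adjusted permutation p = 0.371). The cause of these changes was not tested.

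Whether the replicate numbers shared by the genotypes pair the libraries is not given in the sources used here. Same-numbered libraries had correlations of -0.05 to 0.32, over 0.1 in 3 of 7 pairs. Of the 7 RP libraries, 2 correlated best with their own number. With 7 pairs of tumours that differ in genotype, these values cannot decide it. Depth limits the values of Krt8, Krt19, Spint1 and Prss8 in RPC tumour 5, which rest on 0 to 5 counts.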

Other observations

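A few regulators stood out in RPC tumour 5 and were picked after their values were seen. Zeb1, a repressor that binds CACCTG sequences, was at 154 CPM there, against 8.04 to 60.3 CPM in RP tumours and 17.7 to 82.2 CPM in the other RPC tumours. Twist1 was at 62.7 CPM, with 25.1 CPM as the next highest level in RPC (tumour 3) and 0 to 3.82 CPM in RP. Snai2 was highest of 14 at 9.16 CPM, close to 8.78 CPM in another RPC tumour. Zeb2 and Snai1, at 26.1 and 1.19 CPM, lay within the range of the other libraries. Tfap2a, which encodes the factor AP-2 alpha, was at 64.2 CPM in RPC tumour 5 and 27.4 CPM in RPC tumour 3, against 0.456 to 2.05 CPM in RP tumours (log2 fold change 3.95, SE 1.09, edgeR adjusted p = 0.0671). The value without RPC tumour 5 was 2.76 (edgeR adjusted p = 0.140), and it turned to -0.35 without RPC tumours 3, 5 and 6 (edgeR adjusted p = 0.841). In RPC tumour 3, Krt8 was at 261 CPM and Epcam at 356 CPM. Whether these levels bear on the 9 genes was not tested.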
